A study of Mus musculus with 14 samples.

Results

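The forkhead genes of the mouse encode transcription factors that share a DNA-binding domain, the forkhead or winged helix fold. They were taken from the GENCODE M21 annotation of the mm10 genome as every protein-coding gene whose symbol is Fox, a letter from a to s and a number. This gave 44 genes of 21938 protein-coding genes. The 12 members of the Foxc, Foxf, Foxo and Foxp families are called mesenchymal here, after the rule that chose them. A further 4 were listed as endodermal (Foxa1, Foxa2, Foxa3 and Foxe1), 6 as neural (among them Foxb1, Foxb2, Foxd3, Foxd4 and Foxn4), and 22 form the rest. The names of the groups are broad, since Foxp3 is best known from regulatory T cells, Foxp2 from the brain, and Foxo genes are used in most tissues.

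The H3K4me1 mark was mapped by ChIP-seq in the NG3 line, immortalized mouse embryonic fibroblasts (iMEF) in which Cre recombinase had disrupted the endogenous Ash2l gene and which live on FKBP-HA2-ASH2L, a human ASH2L fused to a degradable tag and delivered by lentivirus. The control cells carry the same deletion and the same fusion as the treated cells, and all libraries come from the same clone. Untreated control cells and cells treated with the PROTAC dTAG-13 (dTAG), which sends the fusion to the proteasome, for 30 min, 2 h, 4 h, 8 h or 16 h gave 6 groups of 2 libraries each, 12 in all, with 2 inputs from the control and from 16 h. The deposited table holds 1 set of 160144 sites over all samples with no value per library. A site can therefore come from any group, no spread between replicates can be given, and no time point is distinguished. The paper reports that sites which gained H3K4me1 after dTAG lay nearly all at promoters. Whether a promoter site was already present in untreated cells cannot be told here.

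ASH2L is a core subunit of the KMT2 complexes, which methylate lysine 4 of histone H3. H3K4me1, the mark with 1 methyl group, is known from enhancers, active or poised, and from the shoulders of active promoters. Nucleosomes nearer to the transcription start site (TSS) usually carry more methyl groups. The paper describes similar patterns for tri-methylation in control cells and for H3K4me1 after ASH2L loss, both with little signal right at the TSS. Forkhead factors bind a short word related to GTAAACA, and several of them, above all the Foxa proteins, can open closed chromatin. In mesenchyme Foxc and Foxf factors act in the formation of vessels, skeleton and gut wall, Foxo factors are held out of the nucleus by insulin and AKT signalling, and Foxp factors mostly repress.

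The label of the cells was compared with a list of markers. Of 12 fibroblast markers, 11 had a site within 1 kb of the TSS, and Col3a1 did not. A site was also found for 4 of 5 epithelial, 3 of 4 endothelial, 1 of 5 blood and 1 of 4 neural markers, and for 0 of 3 muscle and 0 of 3 liver markers. The share was 63.9% over all protein-coding genes, 94.1% over CpG-rich promoters, defined below, and 35.3% over the rest. CpG-rich promoters were 4 of the 12 fibroblast, 2 of the 5 epithelial and 1 of the 4 endothelial markers. They were 0 of the 5 blood, 0 of the 4 neural, 1 of the 3 muscle and 0 of the 3 liver markers. The blood, neural, muscle and liver lists lay below the share of all genes, but nearly all of their promoters were not CpG-rich. Beside the 35.3% of such promoters, lists of 3 to 5 genes are too short to be set apart. Fibroblast markers were not set apart from epithelial and endothelial ones, with Cdh1, Epcam, Kdr and Tek marked as well.

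The sequences just before the TSS are shown for members with and without sites, since the CpG content of a promoter bears on the background it is set against. RefSeq, on GRCm38.p6 (mm10), listed promoters for 28 of the 44 members. The 250 bases upstream of the RefSeq TSS are given for 5 members, 5′ to 3′ on the strand of the gene, with each CpG in capitals. Foxo1 (chr3:52268087-52268336, plus strand) was covered by a site over all 250 bases. Foxc1 (chr13:31806396-31806645, plus strand) was covered over 45 bases at its upstream end. Foxp4 (chr17:47924633-47924882, minus strand), Foxd3 (chr4:99656049-99656298, plus strand) and Foxi1 (chr11:34208090-34208339, minus strand) had no covered base.
Foxo1: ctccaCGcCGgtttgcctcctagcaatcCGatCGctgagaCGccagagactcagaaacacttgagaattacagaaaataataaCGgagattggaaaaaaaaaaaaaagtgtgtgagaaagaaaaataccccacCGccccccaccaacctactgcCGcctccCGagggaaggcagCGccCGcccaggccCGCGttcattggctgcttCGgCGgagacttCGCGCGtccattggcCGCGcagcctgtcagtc
Foxc1: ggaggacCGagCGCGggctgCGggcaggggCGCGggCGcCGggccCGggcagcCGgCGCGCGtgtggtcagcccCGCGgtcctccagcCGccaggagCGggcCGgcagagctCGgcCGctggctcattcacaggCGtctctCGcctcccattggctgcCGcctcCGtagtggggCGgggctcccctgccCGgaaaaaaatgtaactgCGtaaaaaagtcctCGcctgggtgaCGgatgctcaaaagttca
Foxp4: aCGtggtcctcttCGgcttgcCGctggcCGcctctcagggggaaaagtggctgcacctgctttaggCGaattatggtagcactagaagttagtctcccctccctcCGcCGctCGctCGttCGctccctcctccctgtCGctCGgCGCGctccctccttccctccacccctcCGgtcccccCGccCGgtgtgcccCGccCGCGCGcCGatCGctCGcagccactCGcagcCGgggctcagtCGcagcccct
Foxd3: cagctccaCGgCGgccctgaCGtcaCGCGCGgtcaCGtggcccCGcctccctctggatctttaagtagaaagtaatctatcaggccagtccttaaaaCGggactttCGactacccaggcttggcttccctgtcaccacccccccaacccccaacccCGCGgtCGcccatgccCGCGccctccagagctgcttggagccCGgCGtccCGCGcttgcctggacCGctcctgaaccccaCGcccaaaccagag
Foxi1: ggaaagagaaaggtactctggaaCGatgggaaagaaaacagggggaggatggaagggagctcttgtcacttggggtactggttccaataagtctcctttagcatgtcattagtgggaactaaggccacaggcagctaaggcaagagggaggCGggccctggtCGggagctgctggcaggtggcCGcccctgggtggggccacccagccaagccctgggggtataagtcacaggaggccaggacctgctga
These stretches held 20 CpGs in Foxo1, 29 in Foxc1, 27 in Foxp4, 21 in Foxd3 and 4 in Foxi1. The median over 32851 RefSeq promoters was 6, with quartiles of 2 and 16. Foxp4 and Foxd3 thus held at least as many CpGs as Foxo1, yet carried no site.

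Sites were found at the promoters of most forkhead genes. A promoter was the 2000 bp centred on the most upstream TSS, 1 kb to either side, and 32 of 44 forkhead genes (72.7%) had at least 1 site in it, compared with 63.9% of all protein-coding genes. Among the mesenchymal members 10 of 12 (83.3%) had a site, and Foxp3 and Foxp4 did not. Of the endodermal and neural members 6 of 10 (60%) had a site, without Foxa3, Foxb1, Foxd3 and Foxn4. Of the others 16 of 22 (72.7%) had a site, and Foxi1, Foxi2, Foxj3, Foxq1, Foxr1 and Foxr2 did not. No test was made of these shares, because genes are not replicates of a condition.

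The share of all genes is not the closest background for this family. A promoter was called CpG-rich where any 500 bp of it was at least 55% G and C and held at least 0.75 of the CpGs expected from those bases. Of the 44 forkhead promoters 36 were CpG-rich, among them all 12 mesenchymal and 9 of the 10 endodermal and neural ones. A site was present at 29 of these 36 (80.6%), compared with 94.1% of all CpG-rich promoters. By group a site was found at 10 of 12 mesenchymal (83.3%) and 6 of 9 endodermal and neural CpG-rich promoters (66.7%). In the rest of the family it was found at 13 of 15 (86.7%), so the mesenchymal members did not stand out on this background. At the 8 other forkhead promoters it was present at 3 (37.5%), compared with 35.3% of all such promoters. The forkhead promoters as a whole therefore lay above the share of all genes, and the CpG-rich ones lay below the share of promoters of their kind. The CpG-rich promoters without a site were Foxp3, Foxp4, Foxa3, Foxb1, Foxd3, Foxi2 and Foxr1. Of these, Foxp4 had 167 CpGs in its 2000 bp, Foxd3 157 and Foxp3 135, and the median of the 12 mesenchymal members was 165.

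**Figure D1:**
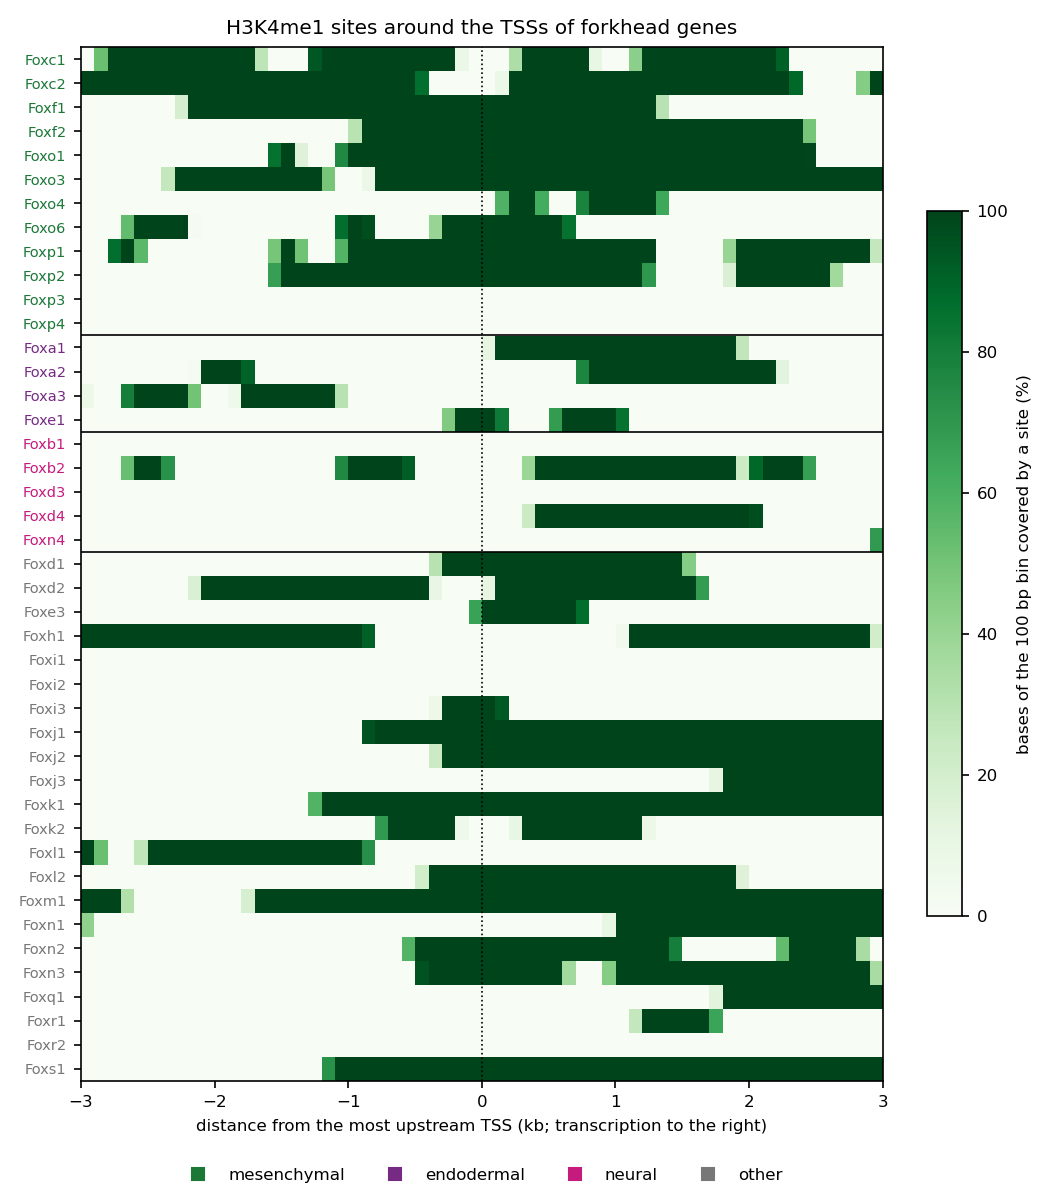
Share of bases covered by H3K4me1 sites (%, green scale) in 100 bp bins from 3 kb upstream to 3 kb downstream of the most upstream TSS for the forkhead genes, with names coloured by group (1 neural member is not shown). Foxf1, Foxo1, Foxp1, Foxp2, Foxk1, Foxm1 and Foxs1 are covered over the whole 2000 bp around the TSS. Foxc1 and Foxc2, among others, show a gap at the TSS. The rows of Foxp3, Foxp4, Foxb1, Foxd3, Foxi1, Foxi2 and Foxr2 are empty.

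The mesenchymal promoters were covered over more of their length than those of the other groups. The median number of covered bases of the 2000 was 1601 in the mesenchymal members, 450 in the endodermal and neural ones and 1015 in the others, and it was 876 over all protein-coding genes and 1366 over those with CpG-rich promoters. With CpG-rich promoters alone it was 623 in the endodermal and neural members and 1323 in the others. The groups lay further apart upstream of the TSS than downstream. In the upstream 1 kb the median was 808 bases in mesenchymal and 0 in endodermal and neural members, with 200 over all genes, and in the downstream 1 kb it was 904, 450 and 548. Sites lay on both sides of the TSS in 9 mesenchymal members and in 3 endodermal and neural ones (Foxe1 and Foxb2 among them), and downstream alone in Foxo4, Foxa1, Foxa2 and Foxd4. Averaged over the upstream 1 kb, 63.9% of the bases of mesenchymal promoters were covered, 13.5% in the endodermal and neural group, 33.5% over all genes and 52.2% over CpG-rich promoters of all genes. In the downstream 1 kb these means were 72.0%, 41%, 48.3% and 76.5%.

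**Figure D2:**
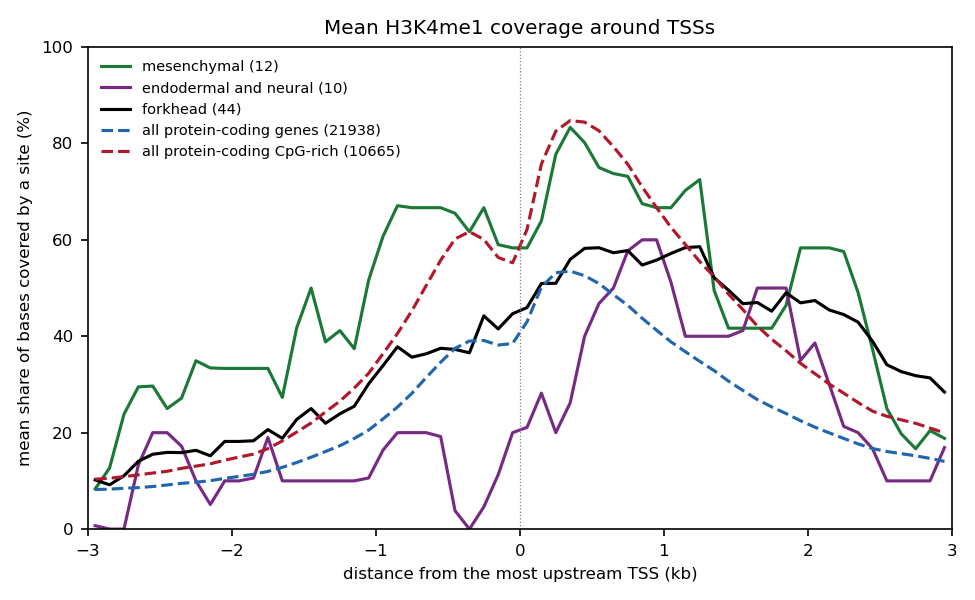
Mean share of bases covered by an H3K4me1 site (%) against the distance from the most upstream TSS (kb) for forkhead groups (solid lines) and for all protein-coding genes and those with CpG-rich promoters (dashed lines), with the number of genes in brackets. The mesenchymal mean peaks at 83.3% from 300 bp downstream, close to the 84.7% of all CpG-rich promoters, and the endodermal and neural mean peaks at 60% from 800 bp downstream.

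A site lay over the TSS in 20 of 44 forkhead genes (45.5%), compared with 39.5% of all protein-coding genes. Among CpG-rich promoters 19 of 36 forkhead TSSs were covered (52.8%), which is close to the 56.4% of all. Of the mesenchymal members 7 of 12 had a covered TSS (Foxf1, Foxf2, Foxo1, Foxo3, Foxo6, Foxp1 and Foxp2), of the endodermal and neural ones 2 of 10 (Foxe1 among them), and of the others 11 of 22. With CpG-rich promoters alone the counts were 7 of 12 (58.3%), 2 of 9 (22.2%) and 10 of 15 (66.7%). In 5 forkhead genes (11.4%) sites lay on both sides with the TSS left free, namely Foxc1, Foxc2, Foxb2, Foxd2 and Foxk2. Among all protein-coding genes this form was found in 13.7%. The free stretch was 459 bp in Foxc1, 606 bp in Foxc2, 480 bp in Foxd2, 484 bp in Foxk2 and 869 bp in Foxb2.

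Foxc1 and Foxc2 encode closely related factors of the cranial, cardiac and vascular mesenchyme. At Foxc1 (ENSMUSG00000050295.4, chr13:31806633-31812476, plus strand) a site of 1102 bp ended 193 bp before the TSS and a site of 543 bp began 267 bp after it, so that most of the upstream sequence printed above lay in the free stretch. At Foxc2 (ENSMUSG00000046714.7, chr8:121116171-121118895, plus strand) a site of 2974 bp ended 415 bp before the TSS and a site of 2197 bp began 192 bp after it. Sites covered 57.6% of the gene body in Foxc1 and 80.6% in Foxc2. The patterns of both genes were also alike over a wider window. Of the 100 bp bins from 3 kb upstream to 3 kb downstream, 37 were at least 50% covered in both and 51 in either, an overlap of 0.726, the highest that any other forkhead gene had with Foxc1. Foxh1 (0.549) and Foxb2 (0.533) came next.

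Foxf1 and Foxf2 act in the mesenchyme of gut and lung under the control of hedgehog signals. Their promoters were covered nearly without a gap, over 2000 bp by a site of 3549 bp in Foxf1 (ENSMUSG00000042812.5, chr8:121084386-121088144) and over 1929 bp by a site of 3378 bp in Foxf2 (ENSMUSG00000038402.2, chr13:31625816-31631403). Within 50 kb to either side Foxf1 had 1 site upstream and 9 downstream, and Foxf2 8 and 6. Of 18 genes of the hedgehog pathway, 17 (94.4%) had a site at the promoter, and the ligand gene Shh did not. As 15 of the 18 have CpG-rich promoters, this share is close to the 94.1% of all CpG-rich promoters.

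Foxo factors drive genes of cell cycle arrest, stress resistance and gluconeogenesis when insulin signalling is low. All 4 Foxo genes had a promoter site. The covered length was 2000 bp in Foxo1 (ENSMUSG00000044167.6, chr3:52268336-52353221), 1808 bp in Foxo3 (ENSMUSG00000048756.11, chr10:42181841-42276755), 1222 bp in Foxo6 and 599 bp in the X-linked Foxo4. Inside the genes 23 sites were found in Foxo1 and 18 in Foxo3, which covered 24.2% and 22.4% of the bodies, and 6 in Foxo6, which covered 29.5%. In Foxo4, 2 sites of 321 and 642 bp covered 15.2%. Of 24 genes that act on Foxo proteins, among them Akt1 and Sgk1, 20 (83.3%) had a promoter site, without Ctnnb1, Skp2, Usp7 and Ywhaz. Of 25 known Foxo targets, 18 (72%) had one, without Fasl, Fbxo32, G6pc, Igfbp1, Pck1, Tnfsf10 and Trim63. CpG-rich promoters made up 18 of the 24 and 11 of the 25, and the share with a site was 63.9% over all genes, 94.1% over CpG-rich promoters and 35.3% over the rest. Among the targets without a site, Fbxo32 alone had a CpG-rich promoter. G6pc, Igfbp1 and Pck1 are best known from the liver, and Fbxo32 and Trim63 encode ubiquitin ligase components of muscle. Whether the sites go with the tissue of a target was not tested.

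Among the Foxp genes the sites were very uneven. Foxp1 and Foxp2 both had 2000 covered bases at the most upstream TSS. Foxp1 (ENSMUSG00000030067.17, chr6:98925338-99522721, minus strand, 597384 bp) held 175 sites in its body, or 29.3 per 100 kb, which covered 29.6% of it. Foxp2 (ENSMUSG00000029563.16, chr6:14901349-15441977, plus strand, 540629 bp) held 16, or 2.96 per 100 kb, which covered 1.55%. The second site of Foxp2 began 1883 bp after the TSS and the third not before 137636 bp. Of the 22 annotated TSSs of Foxp1 20 lay within 1 kb of a site and 15 under one, and of the 16 of Foxp2 10 and 9. In the flanks Foxp1 had 8 sites and Foxp2 0. Foxp4 (ENSMUSG00000023991.16, chr17:47867133-47924645) had its nearest site 25675 bp from its most upstream TSS, within an intron, and 2 of its 8 TSSs lay within 1 kb of a site. Foxp3 (ENSMUSG00000039521.13, chrX:7573644-7595245) had none in its body, with the nearest 8519 bp from the TSS.

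**Figure D3:**
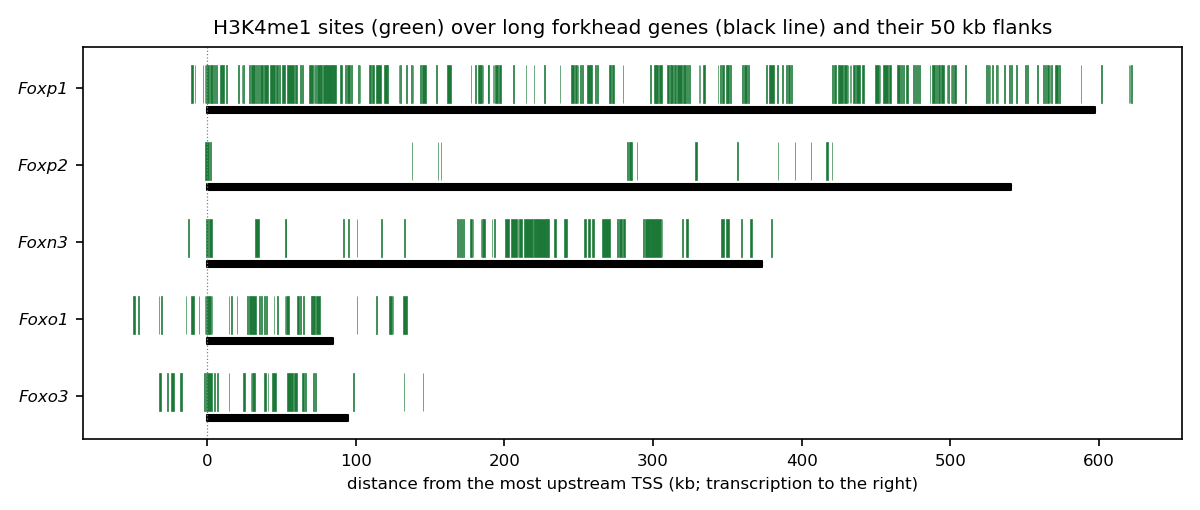
Positions of H3K4me1 sites (green bars) along Foxp1, Foxp2, Foxn3, Foxo1 and Foxo3 (black lines, gene length) and their 50 kb flanks, against the distance from the most upstream TSS (kb). The 175 sites of Foxp1 run through the gene, and the 16 of Foxp2 leave most of it empty.

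A gene of such length has room for many sites, so the long members were set beside other long genes. Of the forkhead genes 10 were at least 40 kb long, with a median of 14.0 sites per 100 kb of gene body and 14.9% of the body covered. Long genes were not split by the CpG content of their promoters. Over the 6110 protein-coding genes of at least 40 kb the medians were 7.99 sites per 100 kb and 5.95%, with upper quartiles of 14.3 and 13.2%. Foxp1 with 29.3, Foxo1 with 27.1 and Foxk1 with 21.5 sites per 100 kb lay above the 90th percentile of these genes (20.5), while Foxp2 with 2.96 and Foxp4 with 3.48 lay under their lower quartile (3.77). Foxn3, of 373505 bp, had 52 body sites, among them sites of 6865, 5746 and 5178 bp.

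Foxa1, Foxa2 and Foxa3 are the pioneer factors of liver, lung and gut endoderm, and Foxe1 is a factor of the thyroid. Foxa1 (ENSMUSG00000035451.7, chr12:57540628-57546916, minus strand) had a site of 1838 bp that began 89 bp after the most upstream TSS, with 911 bases in the window and 0 upstream of the TSS. In Foxa2 (ENSMUSG00000037025.11, chr2:148042877-148046969, minus strand) a site of 1490 bp began 723 bp after the TSS and 277 bases were in the window. RefSeq also places starts downstream, at 805 bp in Foxa1 and at 1021 and 1505 bp in Foxa2, and the 250 bases before each of these were fully covered. The uncovered upstream side of these genes thus depends on which TSS stands for them. Foxa3 had no site in the window or its body. The nearest was 1071 bp upstream, within an intron of Sympk and at a promoter of that gene. Foxe1 had 2 short sites, of 428 bp over the TSS and of 553 bp from 532 bp onward, which together covered 896 bases.

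The neural members held the fewest sites. Foxb1, of the hindbrain and hypothalamus, had no site in its body or in its flanks, and the nearest lay 106311 bp from its TSS. Foxd3, of the neural crest and of pluripotent cells, had 1 site of 485 bp in its flanks, 43086 bp away, and none closer, although its promoter is CpG-rich. Foxn4, of retina and spinal cord, had no promoter site and 2 in its body, of which the nearer began 2931 bp after the TSS. In contrast Foxb2 (ENSMUSG00000056829.4, chr19:16872319-16873805) had 1131 bases at the promoter and 75.7% of its body covered, and Foxd4 623 bases and 80.8%. Foxb1, Foxd3 and Foxn4 thus had no site at the promoter, while Foxb2 and Foxd4 are short genes that sites covered over most of their length.

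In the flanks, 50 kb to either side of the gene, 41 of 44 forkhead genes (93.2%) had at least 1 site, compared with 85% of all protein-coding genes, and Foxp2, Foxb1 and Foxi1 had none. The body held a site in 36 of 44 (81.8%), compared with 72.8% of all protein-coding genes. Beside genes with CpG-rich promoters the forkhead genes were close to the background for flank sites and lower for body sites. A flank site was found at 34 of the 36 CpG-rich forkhead genes (94.4%), compared with 96.5% of all such genes, and a body site at 30 (83.3%), compared with 95.4%. The median number of flank sites was 8 in forkhead genes, as over all protein-coding genes, and 10 over those with CpG-rich promoters. It was 9 in the mesenchymal members, 9.5 in the endodermal, 2.5 in the neural and 10 in the other ones. The low median of the endodermal and neural members together (3.5) came with the neural ones, of which 0 of 6 lay above the median of all genes. More than 17 flank sites, the 90th percentile of all genes, were found at 3 of 44 forkhead genes (6.82%), compared with 7.84% of all genes. These were Foxc1 with 23, Foxe1 with 21 and Foxm1 with 18.

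**Figure D4:**
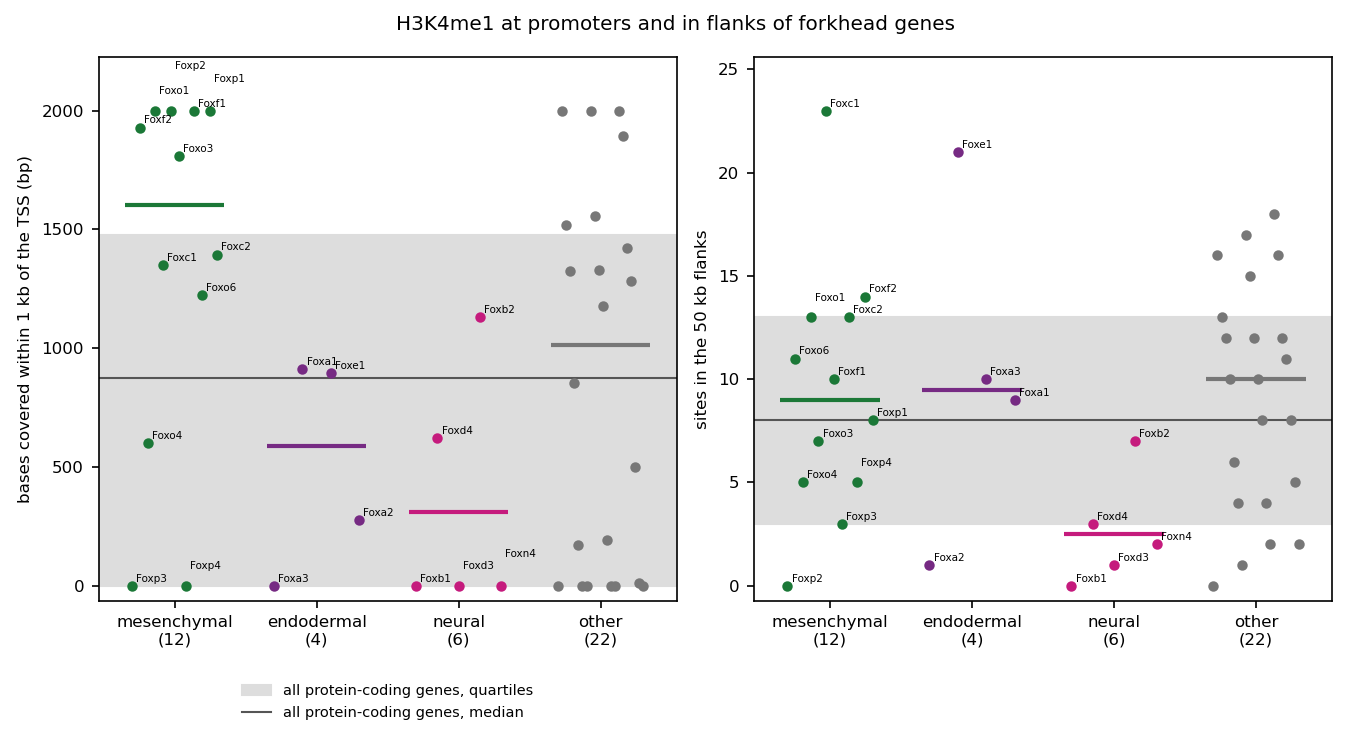
Bases covered by sites within 1 kb of the most upstream TSS (left, bp) and number of sites in the 50 kb flanks (right) for the forkhead genes (points, with 1 neural member not shown, and short bars at the medians of all members of a group), beside the median (line) and quartiles (grey band) of all protein-coding genes. The mesenchymal median lies at 1601 covered bases, the endodermal at 586.5 and the neural at 311.5, and all neural members lie at or below 7 flank sites.

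In Foxe1 flank and promoter did not go together. It had 11 sites upstream and 10 downstream, more than 96.7% of all genes, whereas its covered promoter length exceeded that of 50.8% of them. Foxc1 had 13 sites upstream and 10 downstream, and 31.8% of the gene and its flanks was covered, the largest share in the family. Downstream of Foxc1 lay wide sites of 4246 bp from 6086 bp and of 5666 bp from 11362 bp after the TSS, the latter within an intron of the neighbouring Gmds. After Foxc1 the loci with the largest covered share were Foxl1 with 30.2%, Foxh1 with 28.8%, Foxc2 with 28.4% and Foxk1 with 26.8%.

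Several forkhead genes lie next to each other in the genome, so their flanks share sites. Foxf1, Foxc2 and Foxl1 stand on chr8:121084386-121130644, 46259 bp in which 9 sites covered 39.5% of the bases. The widest, of 6066 bp, lay between Foxc2 and Foxl1 (chr8:121119026-121125091), where 2 sites covered 85.9% of 9044 bp, compared with 24.96% of the 28026 bp between Foxf1 and Foxc2. Foxl1 itself, a gene of the intestinal mesenchyme, had no site in its body and 173 covered bases at the promoter, all upstream. Foxq1, Foxf2 and Foxc1 stand on chr13:31556134-31812476, a cluster of 256343 bp with 43 sites and 16.3% of the bases covered. Between Foxq1 and Foxf2 14 sites covered 19.4% of 64839 bp, and between Foxf2 and Foxc1 25 covered 12.01% of 175229 bp. Foxd2 and Foxe3 stand on chr4:114906282-114926013, with 5 sites over 35.7% of 19732 bp. Over the chromosomes as a whole sites covered 5.48% of the bases. Of a gene with its 50 kb flanks the median covered share was 7.855% over all protein-coding genes. It was 10.63%, with quartiles of 5.854 and 17.24%, over genes with CpG-rich promoters, a range that holds the 16.3% of the Foxq1, Foxf2 and Foxc1 cluster. The cluster spans, unlike these shares, leave out the outer flanks.

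**Figure D5:**
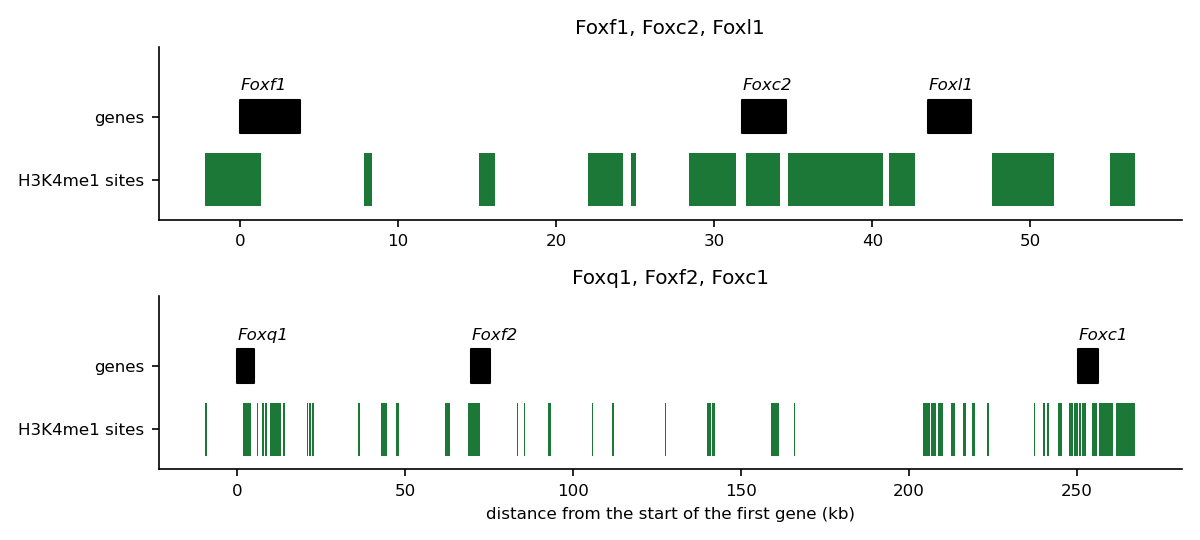
H3K4me1 sites (green) and forkhead genes (black) in the clusters of Foxf1, Foxc2 and Foxl1 (top) and of Foxq1, Foxf2 and Foxc1 (bottom), against the distance from the start of the first gene (kb). Sites fill 85.9% of the stretch between Foxc2 and Foxl1, and 12.01% of that between Foxf2 and Foxc1.

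Of the remaining members, several had very wide sites at the promoter. Foxk1, which acts in metabolism, had a site of 5924 bp over all 2000 bp, and Foxj2 one of 7552 bp. At Foxm1, the driver of mitotic genes, a site of 5482 bp covered all 2000 bp, and it also reached the promoter of the neighbouring Rhno1, so that it cannot be assigned to either gene. The widest promoter site of the family, of 11083 bp, ran over the whole of Foxs1, a gene of 1311 bp, from position -1172 to position 9910 relative to its TSS. Foxj1, the master gene of motile cilia, had 1895 covered bases at the promoter and 72.8% of its body covered. A site of 16271 bp that reached from the upstream flank of Foxr1 beyond its 50 kb lay at the promoter of Bcl9l. It was not counted as a flank site.

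Some of the other genes without a promoter site had sites close by. At Foxj3 the nearest was 1789 bp from the most upstream TSS, and 8 of its 10 TSSs lay under a site. At Foxq1 it was 1787 bp and at Foxr1 1174 bp. Foxi2 had its nearest site at 10371 bp, Foxr2 at 21072 bp and Foxi1, a gene of acid-secreting cells of inner ear and kidney, at 274865 bp, with none in its body or flanks. Small overlaps were counted as promoter sites as well, of 10 bp in Foxn1, the factor of thymus epithelium, and of 191 bp in Foxh1, where the site lies at the promoter of Ppp1r16a. The rest of the group had between 500 bp (Foxi3) and 1558 bp (Foxn2) covered, with Foxe3 at 853 bp, Foxn3 at 1177 bp, Foxk2 at 1285 bp, Foxd1 at 1330 bp, Foxl2 at 1421 bp and Foxd2 at 1520 bp.

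The median width of the sites was larger at forkhead genes than over all genes, but not beside CpG-rich ones in the measure available. The widest site of a gene and its flanks had a median of 2797.5 bp in forkhead genes and 2303.5 bp over all protein-coding genes. Among genes with CpG-rich promoters it was 2758 bp in forkhead genes and 2897 bp over all. The 42 sites at forkhead promoters had a median width of 1723 bp with quartiles of 869 and 2939.8 bp, and the 16697 sites at protein-coding promoters one of 1241 bp with quartiles of 658 and 2068 bp. In bodies and flanks together 704 distinct sites had a median of 737 bp, and all sites on chromosomes one of 603 bp. The centres of 459 of the 704 (65.2%) lay in introns, of 158 (22.4%) between genes and of 87 (12.4%) in exons.

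The word that forkhead factors bind was counted in the 200 bp at the centre of sites more than 1 kb from any TSS. GTAAACA or its reverse complement TGTTTAC was found in 18 of 535 such sites in forkhead loci (3.36%) and in 3549 of 129931 over the chromosomes (2.73%). The share near forkhead genes was thus close to the background. In the 250 bases before RefSeq starts the word occurred in 3.17% of all promoters and in 1 of 33 forkhead entries, that of Foxa1. An example is the centre of a site of 1868 bp within an intron of Foxo1 (chr3:52297265-52297464, plus strand), printed with the word in capitals.
Foxo1 intron: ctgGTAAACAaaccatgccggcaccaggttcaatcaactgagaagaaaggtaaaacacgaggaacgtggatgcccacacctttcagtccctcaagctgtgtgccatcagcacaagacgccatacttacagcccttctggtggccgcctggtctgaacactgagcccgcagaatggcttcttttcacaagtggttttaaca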

How the data were processed

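The values in the table deposited by the authors are positions, the start and end of each H3K4me1 site in a set over all samples, with starts counted from 0, and coordinates printed here are counted from 1. According to the methods, Trim Galore, BWA (mm10) and samtools served the authors to trim, align and filter reads, and Macs called broad peaks after Picard had joined the replicates. Versions and thresholds are not given in the sources used here, and the depth per library is not part of the table. The width of a site depends on the caller.

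Sites on chromosomes (160108) were overlaid on GENCODE M21 genes in Python 3.11.15 with numpy 2.4.6, and figures were drawn with matplotlib 3.10.9. A site reaching into a gene counted as body, and flank sites lay wholly within 50 kb of it. An overlap of 1 bp counted. The interval functions equalled a direct count in 100% of 400 simulated windows. All forkhead genes could be named, and of pathway lists those without a promoter site. Akt1, Sgk1, Gmds and the cell type markers were named after their values were seen. The values of 1 neural member are part of the counts and medians but are not reported here. The members and lists were chosen with earlier results of these data known. A count test per time point was planned for a table with counts and could not be run.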

Additional observations from a re-analysis of the deposited data

How the results depend on the processing

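Of 47 alternatives for 10 results, 36 were classed as the same and 11 as moved. The 36 include shifts that are not small. With sites of at least 500 bp the median of flank sites of all forkhead genes fell from 8 to 5.5. With sites within 1 kb merged that of the mesenchymal members fell from 9 to 6. Forkhead promoters with a site numbered 28 to 36 instead of 32, mesenchymal ones 10 to 11 instead of 10, endodermal and neural ones 5 to 7 instead of 6, and covered TSSs 19 to 25 instead of 20. The 11 were all medians of flank sites. For all forkhead genes (8) the median was 3.5 with flanks of 20 kb, 19 with 100 kb, 5 with sites within 1 kb merged and 5 without sites at TSSs of other genes. For mesenchymal members (9) it was 4 with 20 kb, 20 with 100 kb and 5.5 with sites of at least 500 bp. For endodermal and neural members (3.5) it was 1.5 with 20 kb, 12.5 with 100 kb, 2 with sites of at least 500 bp and 2 without sites at TSSs of other genes. In each of these 5 settings the mesenchymal median was above the endodermal and neural one. The median of all protein-coding genes moved alongside, to 3 with 20 kb and 17 with 100 kb. The promoter call of Foxa2, Foxa3, Foxh1, Foxj3, Foxl1, Foxn1, Foxp4, Foxq1 and Foxr1 depended on the setting. Looser limits for CpG-rich promoters, chosen after seeing the data (GC of at least 50%, ratio of at least 0.6), gave 29 of 37 forkhead promoters (78.4%) and 91.5% of all.

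No paired analysis was possible because positions over all libraries, without values for single ones, are what the table used here gives. For the same reason no replicate was left out, and the depth behind a site is not known from this table.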
